A study of Mus musculus with 6 samples.

Results

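The guanylate-binding proteins (GBPs), large GTPases of the dynamin superfamily, were examined through the transcripts Gbp2, Gbp3, Gbp4, Gbp5, Gbp6, Gbp7, Gbp8 and Gbp9, that is 8 of the 17438 genes in the table. All 8 were present and all 8 passed the filter on low counts. They were picked because members of the family differed between the genotypes in these same libraries, so their genotype differences are given as a description, and counts of calls among them support nothing.

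Interferons induce GBP genes, above all interferon-γ, acting through factors such as IRF1 at promoter elements called ISRE and GAS. The proteins gather on microbial membranes and pathogen-containing vacuoles, where they promote membrane damage, autophagy and inflammasome activation. ILC2s, the innate lymphoid cells that make type 2 cytokines such as IL-5 and IL-13 at mucosal surfaces when IL-33 is released, are not known mainly for this interferon-driven programme.

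ILC2s had been sorted from mouse lung, exposed to IL-33 and cultured before lysis, and each library was made from 10 pg of RNA. Wild-type cells (WT, n = 3) carried the strain label CB57BL/6. The knockout cells (KO, n = 3) were labelled B6.129S4-Cd48tm1Rsr/EpaulJ, the name of a mouse line, and carried the same strain label. The targeted allele in that name, Cd48tm1Rsr, disrupts the gene for the GPI-anchored SLAM family receptor CD48. The series design mentions duplicates, although 3 samples per genotype were analysed. Age and sex of the mice are not stated, nor whether the samples came from separate animals. Every p-value therefore rests on sample-to-sample spread, part or all of which may be technical.

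Library totals ran from 14928623 to 27450400 estimated counts. The WT1 library stood apart: on log2 CPM (counts scaled to library size), its correlation over genes with any other library was 0.922 to 0.932 (Pearson's r), against 0.980 to 0.988 between the remaining libraries. Results are therefore given with and without WT1. Values of single libraries are listed in the order of their replicate numbers, 1 to 3. Cd48 itself matched the labels, at 41.6 to 58.2 CPM in wild type against 4.40 to 5.59 CPM in knockout. All 12 ILC2 markers were detected, among them Il1rl1, Gata3 and Il5. Of the ILC1 and natural killer cell markers, Gzma and Prf1 were measured and stayed under 1 CPM in every library. Markers of the remaining cell types are given last.

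The 8 genes lie in 2 clusters of the GRCm38 (mm10) genome, and each is a protein-coding gene. On the plus strand of chromosome 3, Gbp5 spans 142493978 to 142522344, Gbp7 142530342 to 142550149, Gbp3 142560026 to 142573209 and Gbp2 142620602 to 142638008. On the minus strand of chromosome 5, Gbp8 spans 105014150 to 105139540, Gbp9 105077630 to 105139539, Gbp4 105115767 to 105139586 and Gbp6 105270702 to 105293698. The longest coding transcript has 11 exons in each gene except Gbp8, where it has 10. Gbp4, Gbp8 and Gbp9 overlap each other on the same strand, and Gbp6 overlaps Gm43302, a gene model that also covers Gbp10.

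RefSeq promoter sequences (GRCm38.p6) were matched for the 4 members of the chromosome 3 cluster. They are shown to give the interferon-response motifs found before the RefSeq starts of these genes. Each line gives the 250 bases before a RefSeq start on the plus strand, 5′ to 3′, in lower case. Capitals mark matches to the ISRE core GAAANNGAAA (on either strand, here always on the minus strand) and to the GAS core TTCNNNGAA, which reads the same on both strands. The windows are chr3:142620413-142620662 for Gbp2, chr3:142559794-142560043 for the earlier of the Gbp3 starts, chr3:142530086-142530335 for Gbp7 and chr3:142496684-142496933 for Gbp5.
Gbp2: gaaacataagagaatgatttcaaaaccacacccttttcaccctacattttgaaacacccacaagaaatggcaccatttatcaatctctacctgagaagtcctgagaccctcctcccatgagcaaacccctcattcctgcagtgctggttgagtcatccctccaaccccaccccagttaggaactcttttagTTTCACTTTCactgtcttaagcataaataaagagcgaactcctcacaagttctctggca
Gbp3: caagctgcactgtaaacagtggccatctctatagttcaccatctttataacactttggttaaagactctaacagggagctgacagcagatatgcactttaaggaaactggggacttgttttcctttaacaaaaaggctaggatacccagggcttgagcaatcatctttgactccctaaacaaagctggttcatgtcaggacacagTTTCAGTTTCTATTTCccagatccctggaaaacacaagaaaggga
Gbp7: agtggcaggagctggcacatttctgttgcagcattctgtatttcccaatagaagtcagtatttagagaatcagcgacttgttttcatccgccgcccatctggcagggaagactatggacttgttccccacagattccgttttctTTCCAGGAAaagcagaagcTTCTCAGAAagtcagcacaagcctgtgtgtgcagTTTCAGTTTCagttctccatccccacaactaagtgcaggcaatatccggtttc
Gbp5: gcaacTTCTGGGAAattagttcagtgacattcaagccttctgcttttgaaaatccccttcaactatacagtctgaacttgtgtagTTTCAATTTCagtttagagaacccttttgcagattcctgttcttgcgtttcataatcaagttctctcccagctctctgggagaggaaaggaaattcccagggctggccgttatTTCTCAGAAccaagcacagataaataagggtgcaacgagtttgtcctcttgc
Each of the 4 windows printed held at least 1 ISRE core. The window of the other Gbp3 start, chr3:142560106-142560355, held 0 ISRE and 0 GAS cores. The same core was present in 2.98% of all 32851 promoter windows of this length, and the GAS core in 7.02%. In Gbp2 the ISRE core began 59 bases before the RefSeq start, in Gbp7 53 bases before it, and in Gbp5 165 bases before it. The gene spans given earlier come from another annotation, GENCODE M21, and their starts differ from these. The Gbp2 core and the whole Gbp5 window lie inside those spans, which begin at 142620602 and 142493978. Gbp3 held 2 overlapping ISRE cores, at 45 and 39 bases before its start. Gbp5 and Gbp7 each held 2 GAS cores, while Gbp2 and Gbp3 held 0 in these windows. A match of letters is a description of the sequence and does not show that a factor bound there.

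GBP transcripts were measured in every library, and their sum was lower in KO, mostly through Gbp4 and Gbp6, while Gbp5 and Gbp9 had higher KO means. The 8 genes together summed to 292, 280 and 321 CPM in wild type against 219, 216 and 233 CPM in knockout. Every KO library was below every WT library. The mean was 297.7 ± 21.2 CPM for wild type against 222.5 ± 8.84 CPM for knockout (SD, n = 3 each), a log2 ratio of the means of -0.42, and of -0.44 without WT1. The chromosome 5 members held most of this difference, with 215.7 ± 16.9 CPM for wild type against 154.0 ± 6.30 CPM for knockout (SD, n = 3 each), a log2 ratio of -0.49 with groups that did not overlap. The chromosome 3 members summed to 82.0 ± 12.8 and 68.5 ± 3.04 CPM (SD, n = 3 each), a log2 ratio of -0.26. In that cluster WT1 (68.4 CPM) lay among the KO libraries (65.4 to 71.4 CPM). In RNA from bulk cells, fewer expressing cells and less RNA per cell cannot be told apart.

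**Figure D1:**
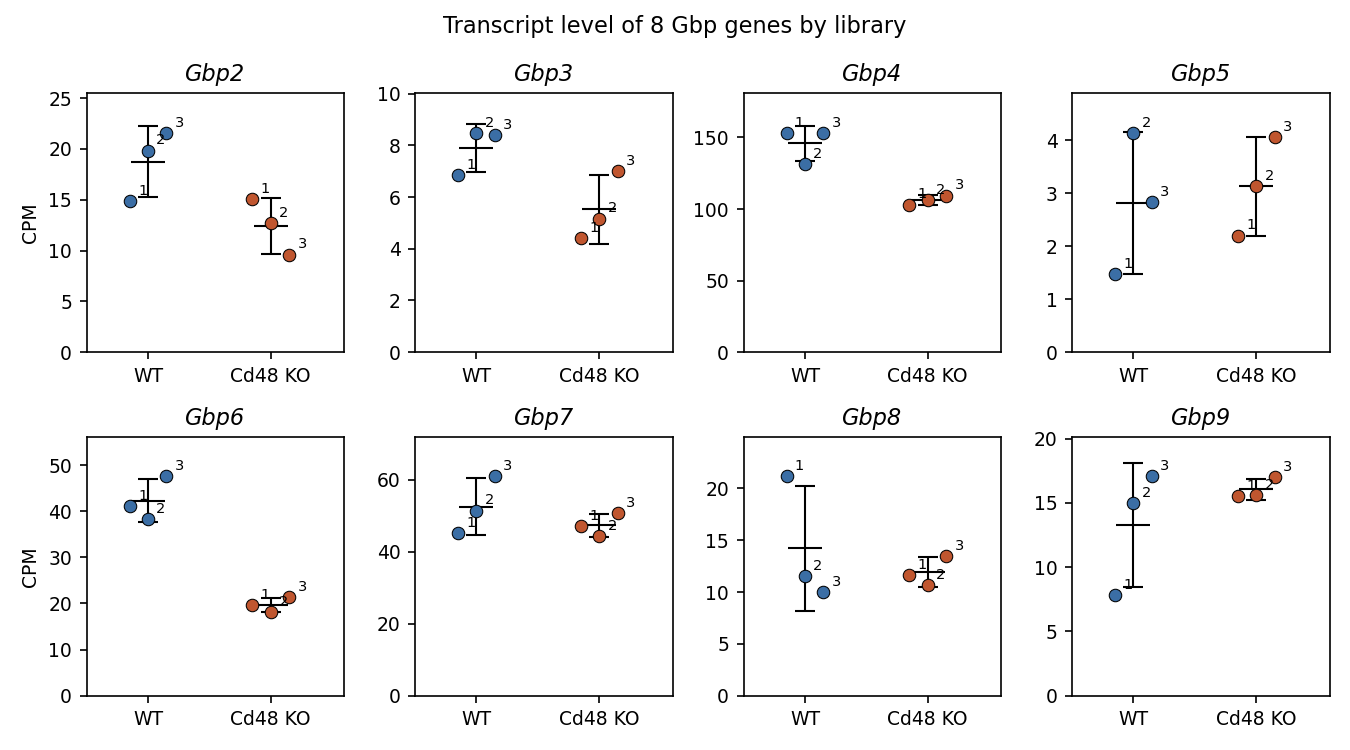
Level of each Gbp gene in CPM (vertical axes start at 0 and differ in scale) in the 3 WT (blue) and 3 Cd48 KO (orange) libraries. Points are libraries, numbered by replicate, and bars are the mean ± SD. Gbp4 and Gbp6 are the members whose KO libraries all lie below all WT libraries.

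Among the chromosome 5 members, Gbp6 differed most. Gbp6, whose protein gathers on Toxoplasma vacuoles in mouse cells, was at 41.2, 38.2 and 47.6 CPM in wild type against 19.6, 18.2 and 21.3 CPM in knockout. The lowest WT library was thus well above the highest KO library. The group means were 42.3 ± 4.76 and 19.7 ± 1.57 CPM (SD, n = 3 each), with a fitted log2 fold change (KO over WT) of -1.10 (SE 0.15), and of -1.12 (SE 0.13) without WT1.

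Gbp4, the most abundant member, whose protein binds and restrains the interferon regulatory factor IRF7, was at 153, 132 and 153 CPM in wild type. In knockout it was at 103, 106 and 109 CPM. The groups again did not overlap, and the KO libraries lay close together. The means were 145.9 ± 12.4 and 106.3 ± 3.19 CPM (SD, n = 3 each), with a log2 fold change of -0.46 (SE 0.11), and -0.42 (SE 0.08) without WT1.

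The other chromosome 5 members, Gbp8 and Gbp9, were set apart by WT1. Gbp8 was at 21.2 CPM in WT1, 11.5 and 9.98 CPM in WT2 and WT3, and 11.7, 10.7 and 13.5 CPM in knockout. Gbp9 was at 7.82 CPM in WT1, 14.95 and 17.0 CPM in WT2 and WT3, and 15.5, 15.6 and 17.0 CPM in knockout. WT1 held the highest Gbp8 and the lowest Gbp9 level of the 6 libraries, and the other WT libraries lay within or near the KO range. The log2 fold change of Gbp8 was -0.25 (SE 0.31) with all libraries and 0.16 (SE 0.18) without WT1. That of Gbp9 was 0.27 (SE 0.29) and, without WT1, 0.002 (SE 0.15). Their direction therefore rested on a single library.

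In the chromosome 3 cluster, Gbp2 and Gbp3 had the fold changes of greatest size, both lower in KO. Gbp2, a prenylated GBP that attacks parasite vacuoles and helps to expose bacterial DNA to AIM2, was at 14.9, 19.8 and 21.6 CPM in wild type. In knockout it was at 15.1, 12.7 and 9.60 CPM. KO1 and WT1 overlapped, and KO3 was the lowest library. The means were 18.8 ± 3.47 and 12.4 ± 2.75 CPM (SD, n = 3 each), with a log2 fold change of -0.59 (SE 0.23), and -0.74 (SE 0.18) without WT1.

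Gbp3, from the same cluster, whose protein is also found on parasite vacuoles, was at 6.84, 8.48 and 8.40 CPM in wild type against 4.40, 5.16 and 6.999 CPM in knockout. KO3 lay just above WT1, so the groups overlapped by a narrow margin. The log2 fold change was -0.52 (SE 0.24), and -0.61 (SE 0.23) without WT1.

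Gbp7 and Gbp5, from the other end of the chromosome 3 cluster, had smaller differences. Gbp7, which helps to assemble the phagocyte oxidase, was at 45.2, 51.5 and 61.0 CPM in wild type against 47.2, 44.4 and 50.7 CPM in knockout. The libraries overlapped, with a log2 fold change of -0.15 (SE 0.15), and -0.25 (SE 0.11) without WT1. Gbp5, a promoter of NLRP3 and AIM2 inflammasome activity, was the scarcest member, at 1.47, 4.14 and 2.84 CPM in wild type against 2.20, 3.14 and 4.06 CPM in knockout. It rested on 21 to 79 counts per library. Its log2 fold change was 0.15 (SE 0.43), and -0.13 (SE 0.33) without WT1, so its direction turned with that library. Of the 4 promoter windows printed above, those of Gbp2 and Gbp3 held no GAS core and those of Gbp7 and Gbp5 held 2, which with 4 genes is given as a description. The fold changes of these 4 genes were not tested against each other.

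**Figure D2:**
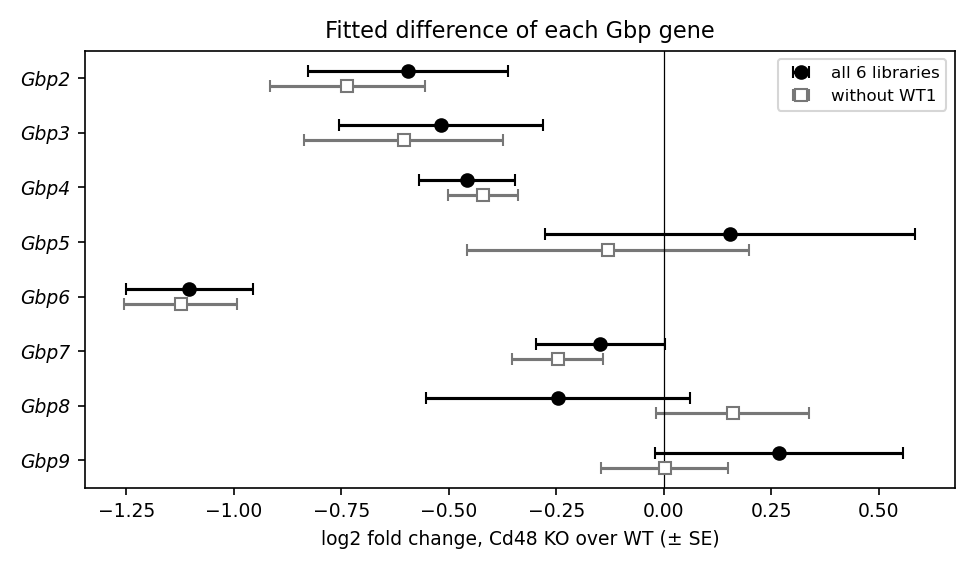
Fitted log2 fold change (horizontal axis, KO over WT, edgeR) of each Gbp gene with its standard error, with all 6 libraries (filled circles) and without WT1 (open squares). Gbp6 stays near -1.1 in both fits, while Gbp8, Gbp9 and Gbp5 shift toward or across 0 without WT1.

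In the edgeR quasi-likelihood test over all genes with all 6 libraries, 0 of the 8 members passed an adjusted p of 0.05 (Benjamini-Hochberg), where 0.0300% of the 13317 tested genes did. At an unadjusted p under 0.05 the members were Gbp2, Gbp4 and Gbp6, where 6.89% of tested genes were past it, 3.95% being lower in KO. On the same libraries, Gbp6 was called lower, as the one member, by DESeq2 (0.363% of tested genes called lower) and by limma-voom weighted by sample quality (0.330%). Without WT1, edgeR called 2 members, Gbp4 and Gbp6, both lower, where 1.82% of 13643 genes were called and 0.652% were called lower. KO libraries lay wholly below WT libraries for 2 of 8 members and for 9.11% of tested genes. Because the members were picked on this contrast, these counts describe them and carry no further weight. The median log2 fold change was -0.35 over the 8 members and -0.004 over all tested genes. It was -0.33 over the members without WT1.

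The makeup of the family does not depend on how libraries are scaled, and it differed between the genotypes. Gbp6 made up 14.1%, 13.6% and 14.8% of all GBP counts in wild type against 8.97%, 8.43% and 9.18% in knockout. The groups were well separated, with means of 14.2 ± 0.579% and 8.86 ± 0.387% (SD, n = 3 each). Gbp4 held 49.0 ± 3.04% of the counts in WT and 47.8 ± 1.23% in KO (SD, n = 3 each), with overlapping libraries. The share of Gbp4 was thus similar in both genotypes, and that of Gbp6 was smaller in KO.

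Gbp7 and Gbp9 had larger shares in KO, where the total they are shares of was smaller. Their own levels overlapped between the genotypes. Gbp7 made up 15.5%, 18.4% and 19.0% in wild type against 21.6%, 20.5% and 21.8% in knockout. Gbp9 made up 2.68%, 5.34% and 5.31% in the WT libraries and 7.10%, 7.23% and 7.31% in the KO libraries. Neither gene's shares overlapped between the genotypes. The ratio of Gbp9 to Gbp6 counts was 0.190, 0.391 and 0.359 in wild type against 0.791, 0.858 and 0.796 in knockout. The ratio of Gbp6 to Gbp4 was 0.269, 0.291 and 0.311 in WT and 0.191, 0.171 and 0.195 in KO. The shares of Gbp2, Gbp3, Gbp5 and Gbp8 overlapped between the genotypes.

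**Figure D3:**
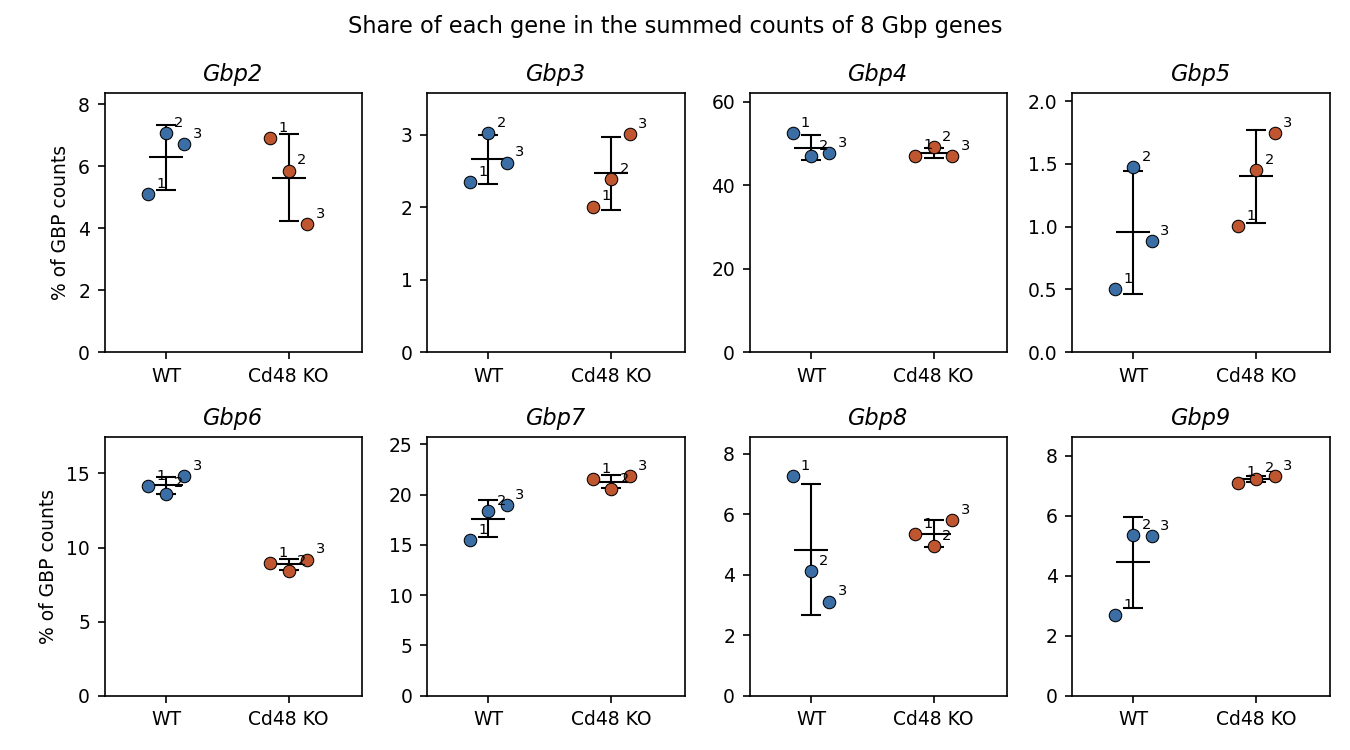
Share of each gene in the summed counts of the 8 Gbp genes, in percent (vertical axes start at 0 and differ in scale), for 3 WT (blue) and 3 Cd48 KO (orange) libraries, numbered by replicate, with the mean ± SD. Gbp6 has the smaller share in KO, and Gbp7 and Gbp9 have the larger share, in each case without overlap.

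Per kilobase of the longest coding transcript, the order of WT levels was Gbp4 (32.1 ± 2.73 CPM per kb), Gbp6 (16.3 ± 1.83), Gbp7 (9.36 ± 1.42), Gbp2 (7.45 ± 1.38), Gbp8 (5.79 ± 2.46), Gbp9 (3.03 ± 1.10), Gbp3 (2.95 ± 0.344) and Gbp5 (0.921 ± 0.437; SD, n = 3 for each). Gbp4 and Gbp6 were each above the next gene in every WT library. Gbp7 and Gbp2, Gbp2 and Gbp8, and Gbp9 and Gbp3 overlapped as neighbours. In KO, Gbp4 remained first at 23.4 ± 0.703 CPM per kb, but Gbp7 (8.45 ± 0.567) and Gbp6 (7.57 ± 0.604; SD, n = 3 for each) overlapped, with single libraries from 7.91 to 9.04 and from 6.99 to 8.19. Gbp2 (4.95 ± 1.09) and Gbp8 (4.86 ± 0.577) also overlapped there. The place of Gbp7 depends on the transcript: its coding transcripts are 5614 and 2497 bases long, and the shorter would put its mean over the 6 libraries at 20.0 in place of 8.91 CPM per kb. With their shortest coding transcripts, Gbp8 would stand at 8.18 in place of 5.32 and Gbp9 at 5.43 in place of 3.35 CPM per kb.

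Several of these genes share long stretches of sequence, so their reads could have been divided between them. The 75-base windows of the longest coding transcript recurred in transcripts of other genes for 86.0% of Gbp6. For Gbp6 the shared windows lay in Gm43302 (86.0%) and, in part, Gbp10 (51.7%). For the other members the share was 11.4% (Gbp7, mostly with the processed pseudogene Gm43802), 8.0% (Gbp8), 5.4% (Gbp4), 4.3% (Gbp9), 2.7% (Gbp3), 1.0% (Gbp2) and 0.1% (Gbp5). For Gbp2 and Gbp5 all 6 values were whole numbers within 0.001, while for Gbp4, Gbp6 and Gbp9 none was. Gbp10 and Gm43302 took few reads, 31.8 and 50.3 counts over the 6 libraries together, against 3483.9 for Gbp6. Summing Gbp6, Gbp10 and Gm43302 gave 41.5, 40.1 and 48.3 CPM in wild type against 19.7, 19.1 and 22.1 CPM in knockout. The log2 fold change of the sum was -1.10, and -1.12 without WT1, so the difference of Gbp6 was as large with those relatives included. Gbp2b, which lies between Gbp3 and Gbp2, and Gbp11 were not analysed here.

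Genes around the clusters, which had no part in the choice, were tested next. Of the 10 nearest tested protein-coding genes around the chromosome 3 cluster, 5 on each side, edgeR called 0, with 0 at an unadjusted p under 0.05. Around the chromosome 5 cluster 0 of 10 were called, with 1 (Zfp951, higher, at 0.42) at an unadjusted p under 0.05. Over all tested genes, 0.0300% were called and 6.89% had an unadjusted p under 0.05. Counts this low among 10 genes therefore say little about the regions. The genes lay up to 4004 kb from the chromosome 3 cluster and up to 1270 kb from the chromosome 5 cluster. The edgeR fit without WT1, DESeq2 and quality-weighted limma-voom also called 0 of these 20 genes. The log2 fold changes ran from -0.51 to 0.37 on chromosome 3 (median 0.07) and from -0.62 to 0.42 on chromosome 5 (median 0.19). Without WT1 the medians were 0.09 and 0.01. The closest neighbours were Pdlim5 (log2 fold change 0.29) and the transaminase gene Kyat3 (0.37) on chromosome 3, and the transporter gene Abcg3 (0.08) and the volume-regulated channel gene Lrrc8b (0.27) on chromosome 5. Without WT1 these values were 0.11, 0.29, -0.25 and 0.01, so that of Abcg3 changed sign.

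**Figure D4:**
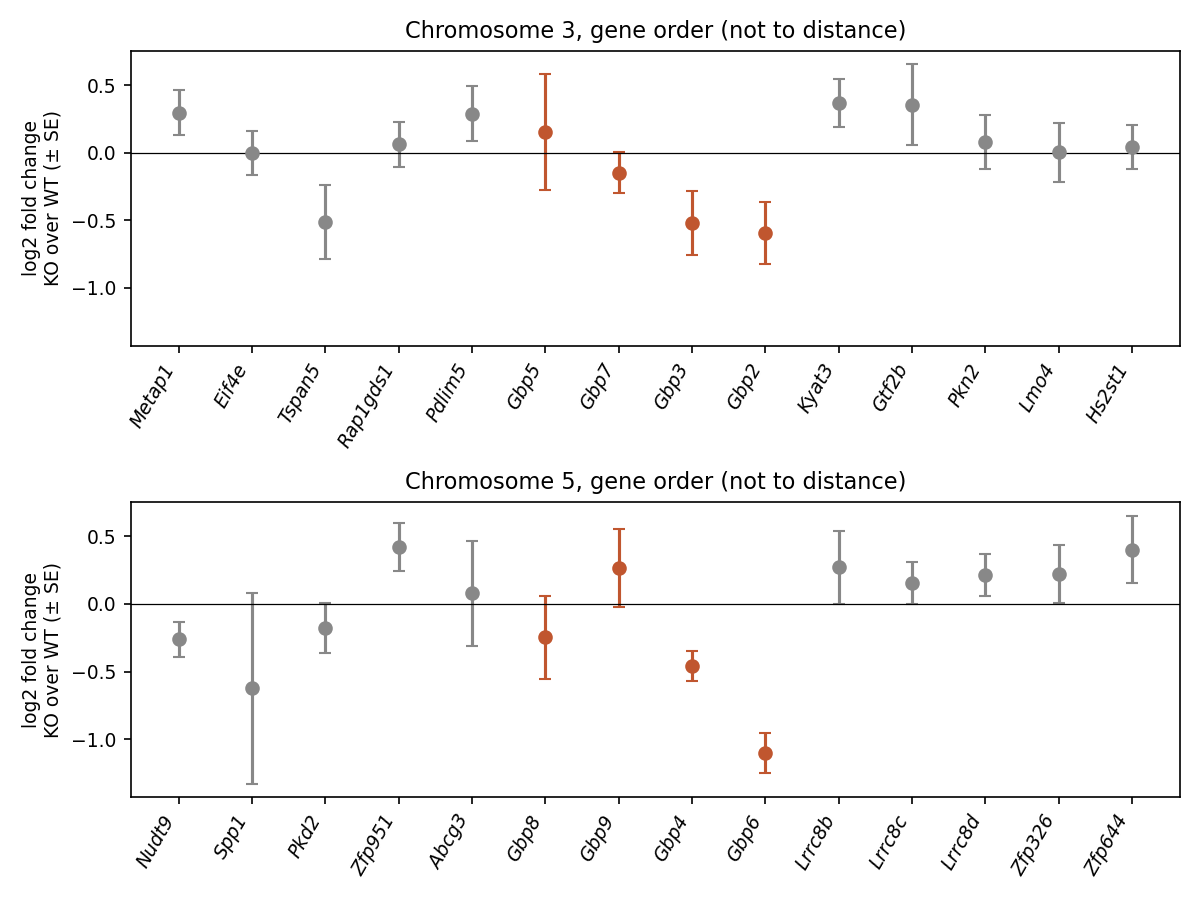
Fitted log2 fold change (vertical axis, KO over WT, all 6 libraries) with its standard error for the Gbp members (orange) and the 5 nearest tested protein-coding genes on each side (grey), in genomic order along chromosomes 3 and 5, not to distance. Gbp6 and Gbp4 lie lower than the adjacent Abcg3 and Lrrc8 genes.

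The signalling machinery upstream of the GBPs was measured in the same fit. Of 13 tested receptor, JAK and STAT genes, 0 were called with all 6 libraries or without WT1. Over all tested genes 0.0300% and 1.82% were called. Counts of 0 in this list and in the short lists that follow therefore say little about those genes. The list median log2 fold change was -0.06, against -0.004 over all genes. The most abundant were Jak1 (log2 fold change 0.18) and Stat3 (0.09), with 0.02 and 0.01 without WT1. The interferon-γ gene was not analysed here. Of the ligand list, Il18 was the measured gene and stayed under the filter on low counts.

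Of 13 tested transcription factors of interferon-response promoters 0 were called, with or without WT1, and the list median was -0.08. At an unadjusted p under 0.05 were Rela and Irf9, both lower, where 6.89% of all tested genes were past it and 3.95% lower. The most abundant, Nfkb1 and Rela, had log2 fold changes of -0.07 and -0.38 (adjusted p 0.892 and 0.690, edgeR). Without WT1 they had 0.16 and -0.31, so the direction of Nfkb1 turned with that library. Irf1, a direct activator of GBP genes named after its values were seen, was at 57.1, 102 and 96.7 CPM in wild type against 77.2, 84.2 and 84.8 CPM in knockout. WT1 was its lowest library, so its log2 fold change was -0.06 (SE 0.22) with all libraries and -0.27 (SE 0.08; adjusted p 0.129, edgeR) without WT1. Of 13 tested negative regulators 0 were called, with a median of -0.07. The most abundant were the SOCS family genes Cish (0.34) and Socs1 (-0.24), with 0.09 and -0.13 without WT1. At an unadjusted p under 0.05 were Usp18, Isg15 and Irf2bp1, all lower, with Usp18 at -0.96 (adjusted p 0.689, edgeR).

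Of the other interferon-inducible GTPases, 6 fell in KO in the fit without WT1. Of 11 tested genes on their list, which also holds the constitutive atlastins, edgeR called 0 with all 6 libraries, with 7 at an unadjusted p under 0.05 (6 lower, and Atl2 higher). DESeq2 called 5 and quality-weighted limma-voom 6, all lower. Without WT1, edgeR called 6, all lower, where 0.652% of all genes were. The list was chosen with earlier results of these data known, so these counts describe it and carry no further weight. The 6 were Irgm1, Igtp, Tgtp1, Tgtp2, Ifi47 and Iigp1, which encode immunity-related GTPases (IRGs). The list median log2 fold change was -0.55, and -0.50 without WT1.

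The log2 fold changes of Tgtp1 and Tgtp2 were of greater size than that of Gbp6 with all libraries, a contrast that was not tested. Tgtp1 was at 27.3 ± 6.25 CPM for wild type against 8.11 ± 0.865 CPM for knockout (SD, n = 3 each), a log2 fold change of -1.75 (SE 0.21), and of -1.55 without WT1 (adjusted p 0.000370, edgeR). Tgtp2 had -1.46, and -0.99 without WT1 (adjusted p 6.58e-05, edgeR). These near-identical genes may share reads. Without WT1, Ifi47 fell by 0.74 (adjusted p 0.000515), Igtp by 0.50 (0.00602) and Irgm1 by 0.42 (0.0165, all edgeR) on the log2 scale. Igtp overlaps Irgm2 on the same strand. Iigp1 had 23, 27 and 32 counts in WT1, WT2 and WT3 and 0 in the 3 KO libraries, which makes it at least 24.1-fold lower in KO against a floor of 3 counts over the group. Since PCR copies were not marked, that bound covers counting error only. Within the list the 2 atlastins tested, which shape the endoplasmic reticulum, had log2 fold changes of 0.42 (Atl2) and 0.16 (Atl3), and of 0.27 and -0.08 without WT1.

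Genes whose products act with GBP proteins did not pass the test with all libraries. Of 14 tested genes for conjugation of ATG8 proteins and for ubiquitin at vacuoles 0 were called, and the median was 0.01. The most abundant were the autophagy receptor gene Sqstm1 (0.02) and Map1lc3b (-0.45). Without WT1, Map1lc3b had -0.18 and edgeR called Sqstm1 lower at -0.22 (adjusted p 0.0401). Sqstm1 overlaps Mrnip on the opposite strand, so reads of that pair cannot be separated with certainty. Of 8 prenylation genes, which serve the lipid anchors of Gbp2 and Gbp5, 0 were called with or without WT1, with a median of -0.002; Fdps had -0.004 and Zmpste24 0.17, and 0.11 each without WT1. Of 11 tested inflammasome and pyroptosis genes 0 were called with or without WT1, with a median of -0.10, and Nlrp3, higher at 0.48, was the gene with an unadjusted p under 0.05. Casp8 (-0.03) and the pore-forming Gsdmd (-0.10) were the most abundant of them, with 0.08 and -0.09 without WT1. Over these lists together edgeR called 0 of 83 tested genes with all libraries and 13 at an unadjusted p under 0.05, where 0.0300% and 6.89% of all genes were. Without WT1 it called 7, all lower, where 1.82% of all genes were called and 0.652% called lower. Since the lists were chosen with earlier results of these data known, these counts too are a description.

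**Figure D5:**
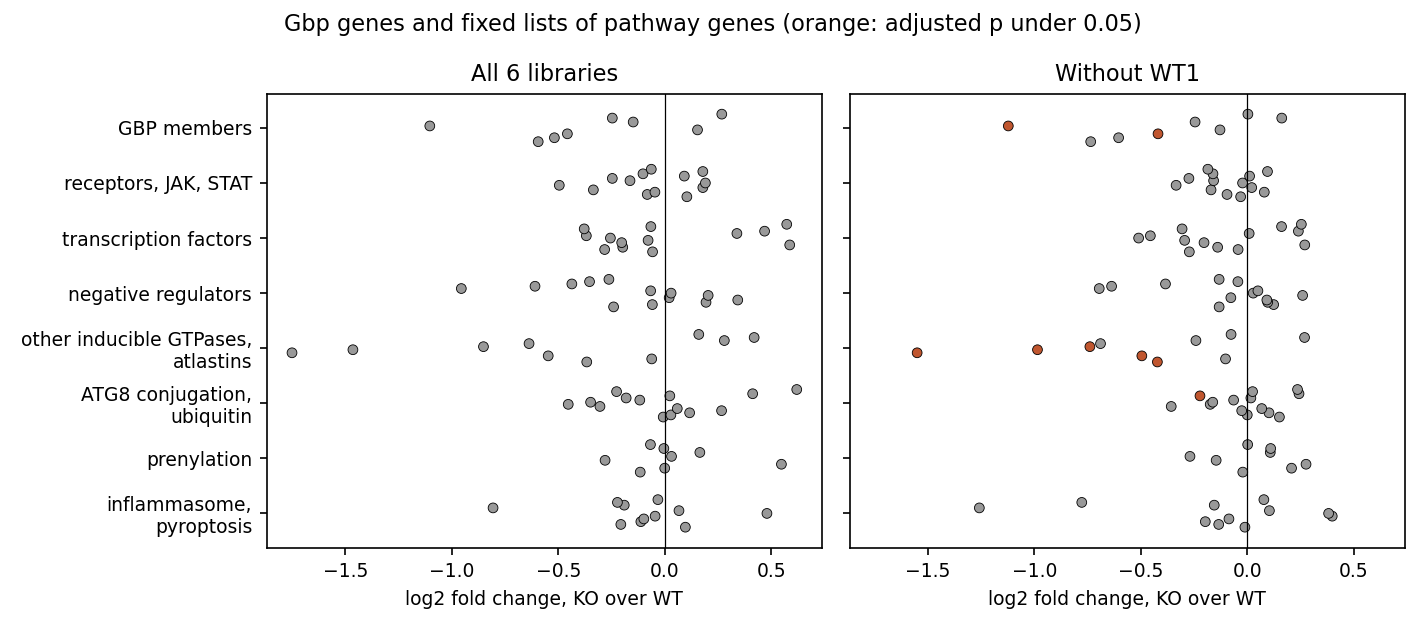
Log2 fold change (horizontal axis, KO over WT, edgeR) of the Gbp members and of each tested gene on the fixed pathway lists, with all 6 libraries (left) and without WT1 (right). Orange points have an adjusted p under 0.05 over all genes, and Iigp1, with 0 counts in KO, is not drawn. The other inducible GTPases hold 5 of the orange points drawn on the right, and the GBPs hold 2.

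Across the 6 libraries, the genes whose pattern lay nearest to the average of the 6 GBPs with a mean of at least 10 CPM were Irgm1, Ppp1r9b, Klhl24, Cep85 and Cd247, out of 8670 non-members. The members were picked on the genotype contrast, and their average was lower in each KO library than in each WT library. Genes near that average are therefore lower in KO by construction. Likeness was the root mean square distance between log2 CPM values centred on each gene's mean, and was 0.042 for Irgm1 and 0.062 for Cd247. Of the members averaged, Gbp4 and Gbp7 lay at 0.104 and 0.131 from that average, which would rank them 68 and 176 among the non-members. Gbp2 lay at 0.256 (rank 3333), Gbp6 at 0.378 (6251), Gbp8 at 0.398 (6529) and Gbp9 at 0.460 (7196). Most of the averaged members were thus not close to their average. Gbp5 lay farthest from it, at 0.550. Among the members the closest pair was Gbp4 and Gbp7 (0.216) and the most distant was Gbp5 and Gbp6 (0.826).

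Of the marker lists of other cell types, edgeR called 0 genes with all libraries, where 0.0300% of all tested genes were called. Without WT1 it called Trbc2, Ccr2 and Epcam, all lower. They were 1 each of the 6 T cell, 7 macrophage and 7 epithelial markers measured. Of the 12 ILC2 markers it called Il5, higher. In that fit 1.82% of all tested genes were called and 0.652% were called lower. The 7 epithelial markers summed to 31.4 to 72.8 CPM in WT and 10.0 to 23.8 CPM in KO, with Sftpb under 1 CPM in every library. The 6 measured of 9 T cell markers summed to 180.1 to 224 CPM in WT and 133.9 to 155 CPM in KO, mostly Trbc1 and Trbc2. Of that list Lef1 was at 14.04 to 14.7 CPM in WT and, higher, at 15.001 to 18.7 CPM in KO, while Cd3d and Trac stayed under 1 CPM in every library. The 4 measured of 6 dendritic cell markers summed to 58.4 to 67.2 and 51.7 to 58.3 CPM, nearly all Xcr1, with Flt3 under 1 CPM in every library. The 7 measured of 10 macrophage and monocyte markers, cells that express GBPs strongly, overlapped at 217 to 328 and 209 to 226 CPM. Most of that sum was Ccr2, at 203 to 299.6 CPM over the 6 libraries. Lyz2 was at 1.68, 13.95 and 16.8 CPM in wild type against 1.47, 5.66 and 0.621 CPM in knockout, and Cd68 ranged from 3.95 to 8.29 CPM. C1qa and Mrc1 stayed under 1 CPM in every library. The summed B cell (25.04 to 47.5 CPM), mast cell (114 to 281 CPM, mostly Kit) and endothelial markers (29.1 to 41.9 CPM) overlapped between the genotypes, and the measured neutrophil and fibroblast markers stayed under 2 CPM. The part of these cells in the GBP differences was not tested.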

How the data were processed

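RNA-seq of 3 WT and 3 Cd48 KO ILC2 samples was used, grouped by sample title. Tools named in the submitters' processing notes are STAR 2.7.8, Partek 10.0 and DESeq2, with the mm10 build and no roles; the counter, annotation and strand setting were not given in the sources used here. Per gene, the authors deposited estimated counts. Judged from the values they are not normalized: totals differ and 60.2% of non-zero values are whole within 0.001.

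Counts were rounded and tested in R 4.3.3 with edgeR 4.0.16 (TMM, filterByExpr with a minimum count of 10 and total of 15, robust quasi-likelihood, genotype as the only term), with Benjamini-Hochberg adjustment over all tested genes. The SE is the size of the fitted change divided by the root of its F statistic. CPM was scaled by TMM, and log2 CPM used a prior count of 2. Replicates differed beyond sampling noise (chi-square per gene 5.22 to 135). Positions, transcripts and overlaps came from GENCODE M21, which matched 97.6% of symbols. The fit was tested on simulated data.

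Members and lists were chosen with earlier results of these data known. All 8 members are named, with the called and the 2 most abundant tested genes of each list, the 5 genes of nearest pattern and the nearest flanking genes. Alternatives were other size factors, filters, DESeq2 1.42.0, limma 3.58.1 (voom, plain or quality-weighted), a non-robust fit, unrounded counts, a replicate block and each library left out. The summing of Gbp6, Gbp10 and Gm43302 was chosen after seeing the data.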

Additional observations from a re-analysis of the deposited data

How the results depend on the processing

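Over all genes, 4 were called by edgeR with all 6 libraries, 102 by DESeq2, 95 by limma-voom with sample quality weights and 0 with the replicate block (776 at an unadjusted p under 0.05). Leaving out single libraries gave 0 to 248, with 248 without WT1 and 0 without KO1 or KO3 (662 and 335 at an unadjusted p under 0.05). GBP members called were 0, against 1 with DESeq2 and 1 with limma-voom with quality weights, and 0 to 2 with single libraries left out. Called genes on the pathway lists were 0, against 5 with DESeq2, 6 with quality weights, and 0 to 7 with single libraries left out. In each case the highest count came without WT1, and the cause was not tested. Same-numbered samples did not deviate together (correlations -0.046, -0.036 and -0.009, 0 of 6 samples best matched by their own number). With 3 libraries per group and WT1 apart, this cannot settle whether the numbers mark pairs. Under the block 0 members and 0 pathway genes were called. Among members, Gbp5 and Gbp8 changed sign under some alternatives. Gbp2, Gbp3, Gbp4, Gbp6 and Gbp7 were below 0 in each alternative run. Gbp6 ranged from -1.17 to -1.01, Gbp5 from -0.13 to 0.52 and Gbp8 from -0.45 to 0.16. The few counts of Gbp5, 21 to 79 in a library, limit what can be read from it. A filter on a mean of at least 10 CPM left out Gbp3 and Gbp5, which then had no value.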
